A study of Mus musculus with 6 samples.

Results

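The genes described here are 9 that encode secreted or secretory-cell proteins of the mouse airway and are widely used to mark club cells and other secretory cells of the bronchioles and larger airways: Scgb1a1, Scgb3a1, Scgb3a2, Bpifa1, Bpifb1, Reg3g, Muc5b, Cbr2 and Gabrp. They were chosen by gene symbol, with earlier results of these data known. All 9 are among the 13931 protein-coding genes the files list, with 14 of the 24647 listed transcripts. RNA was sequenced from preparations of alveolar epithelial type 2 (AT2) cells, the surfactant-making cells of the alveolus, from C57BL/6 mice. In 3 mice exposure was to bleomycin at 1 U/kg, given more than once (mBLM in the plots), and in the 3 controls it was to PBS (sham in the plots). Bleomycin is a DNA-breaking drug used to injure the lung. Not given in the sources used here were the mice's age, the number and route of exposures, the harvest time and the isolation method. The labels name no transgene or reporter in either group.

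Club cells are dome-shaped secretory cells that line the bronchioles, metabolise inhaled chemicals and release small secretoglobins into the airway fluid. Goblet and serous cells of the larger airways share part of this programme. The gel-forming mucin Muc5b and the antimicrobial BPI-fold proteins are among their products, though not theirs alone. After injury, secretory cells of the distal airway are known to divide and to contribute to both airway and alveolar repair, and cells that make both Scgb1a1 and surfactant protein C occur where bronchioles open into alveoli.

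The values are FPKM, fragments scaled by transcript length and by the mapped fragments of the library, summed over the transcripts of a gene, so levels of different genes can be set side by side. The listed FPKM summed to between 259607 and 272315 in the bleomycin libraries and to between 253146 and 300697 in the PBS libraries. The number of reads behind a value is unknown. The label AT2 was checked against the marker Sftpc, the surfactant protein C gene, which had 5545, 5805 and 2356 FPKM in bleomycin replicates 1 to 3, against 20624, 14292 and 13393 FPKM in PBS replicates 1 to 3. In the same libraries the summed level of 30 leukocyte genes was 2046 to 3125 FPKM with bleomycin and 79.2 to 119 FPKM with PBS, and that of 19 endothelial genes was 430 to 775 FPKM with bleomycin and 74.9 to 118 FPKM with PBS. The summed level of 20 pan-epithelial genes was 268 to 441 FPKM with bleomycin and 701 to 730 FPKM with PBS. Markers of other cell types thus moved with the groups, and in bulk RNA fewer cells of a type and less RNA per cell cannot be told apart.

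Of the 9 genes, 2 rose with bleomycin (Bpifa1 and Scgb3a1), 0 fell and 7 were not called. A gene was called when its Benjamini-Hochberg adjusted p over all 12326 tested genes was under 0.05 in limma, fitted on log2(FPKM + 1) with 3 libraries a group. Of all tested genes 22.5% were called, 15.2% higher and 7.34% lower with bleomycin, so 2 called of 9 is close to the share over all genes. At an unadjusted p under 0.05 there were 4 members, with Cbr2 and Muc5b added. The share of all tested genes at that p was not counted, so these 4 are not read as a result. That share is at least the 22.5% called, as no adjusted p is below its unadjusted p. The libraries of the groups did not overlap for 4 members, 3 of them higher and 1 lower with bleomycin, against 43.6% of all tested genes. The median log2 fold change of the 9 was 0.14, beside 0.09 over all tested genes.

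**Figure D1:**
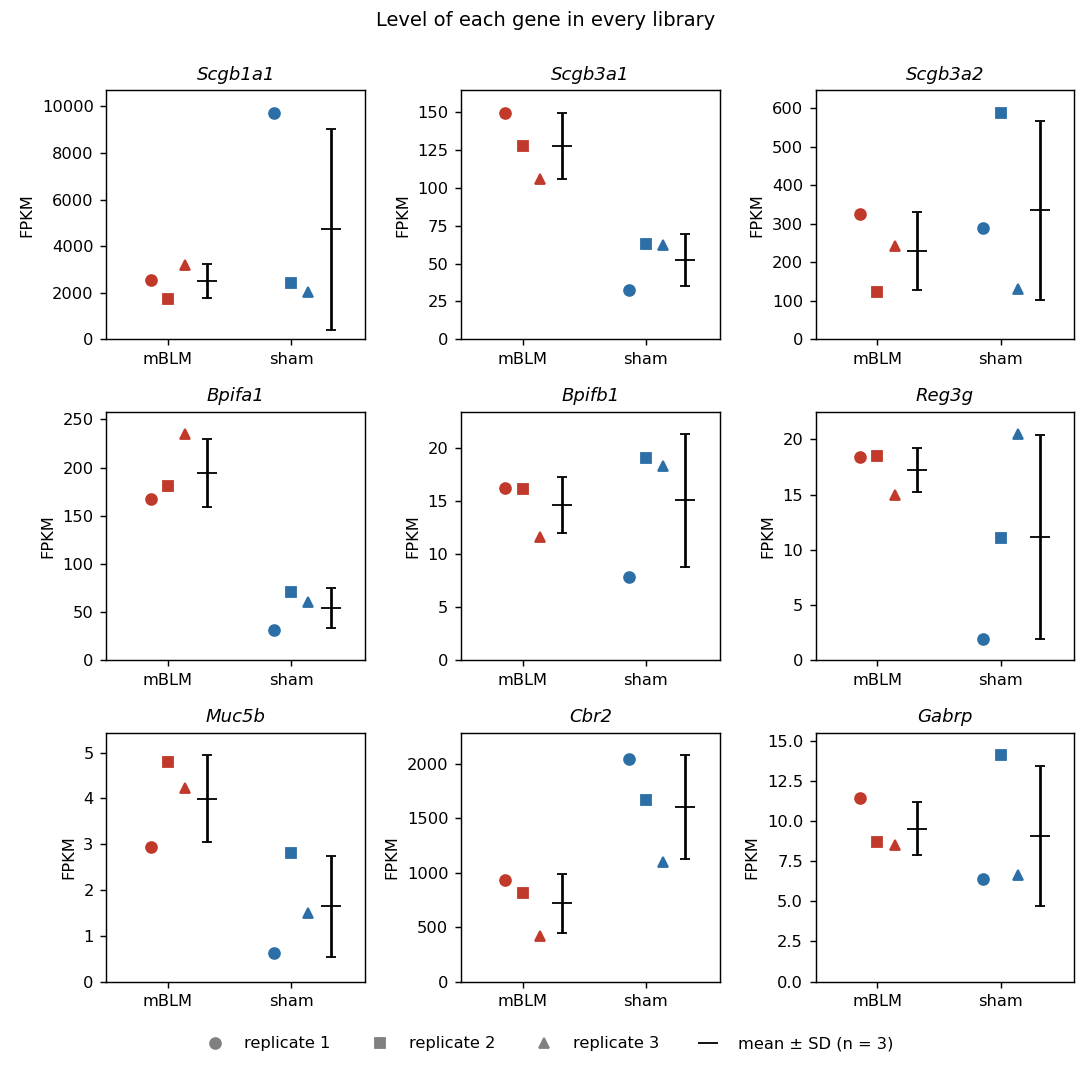
FPKM of the 9 genes in each of the 3 mBLM (bleomycin, red) and 3 sham (PBS, blue) libraries on linear axes from 0; the marker shape gives the replicate number, and the black bar is the group mean ± SD. Bpifa1, Scgb3a1 and Muc5b are higher and Cbr2 is lower in each bleomycin library than in any PBS library, and PBS replicate 1 holds the highest Scgb1a1 and the lowest Reg3g.

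The order of the mean levels was nearly the same in both groups. From high to low it was Scgb1a1, Cbr2, Scgb3a2, Bpifa1 and Scgb3a1 with bleomycin as with PBS, and Gabrp and Muc5b stood last in both. Reg3g and Bpifb1 held the places between, Reg3g above Bpifb1 with bleomycin and below it with PBS, with FPKM ranges that overlapped within each group. With bleomycin the other neighbours in this order had separate ranges except Scgb3a2 and Bpifa1. With PBS the ranges of Scgb3a2 and Bpifa1 were separate. The pairs that overlapped there, besides Reg3g and Bpifb1, were Scgb1a1 and Cbr2, Bpifa1 and Scgb3a1, and Reg3g and Gabrp. Together the 9 genes made up 1.53%, 1.15% and 1.63% of the listed FPKM in bleomycin replicates 1 to 3, against 4.03%, 1.86% and 1.34% in PBS replicates 1 to 3. The high share in PBS replicate 1 came with its Scgb1a1 level. The PBS libraries spread more widely than the bleomycin libraries, by the ratio of highest to lowest, for 8 of the 9 genes, Cbr2 being the exception. PBS replicate 1 was the lowest of the 6 libraries for 6 members and the highest for the 2 most abundant, Scgb1a1 and Cbr2.

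Of the secretoglobins, small secreted proteins abundant in airway fluid, Scgb3a1 rose and the other two were not called. Scgb1a1 encodes uteroglobin, the most abundant protein of club cell secretion, and lies on chromosome 19 (9083636 to 9087958, minus strand, mm10) in 3 exons. It had 2554, 1747 and 3202 FPKM in bleomycin replicates 1 to 3, against 9716, 2419 and 2011 FPKM in PBS replicates 1 to 3. The groups overlapped, and PBS replicate 1 stood 4.02-fold above the next PBS library. The means were 2501 ± 729 FPKM with bleomycin and 4715 ± 4336 FPKM with PBS (SD, n = 3 each). The log2 fold change was -0.58 ± 0.64 (SE; 95% interval -2.11 to 0.96; limma adjusted p = 0.561). Without PBS replicate 1 it was 0.14 (limma adjusted p = 0.831), so 1 library set its sign.

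Scgb3a1, a secretoglobin best known from secretory cells of the larger airways, lies on chromosome 11 (49663610 to 49665118, plus strand). It had 149, 128 and 106 FPKM in bleomycin replicates 1 to 3, against 32.7, 62.8 and 62.1 FPKM in PBS replicates 1 to 3. Each bleomycin library was above each PBS library. The means were 127 ± 21.9 FPKM with bleomycin and 52.5 ± 17.2 FPKM with PBS (SD, n = 3 each), a ratio of 2.43. Its log2 fold change was 1.31 ± 0.29 (SE; 95% interval 0.61 to 2.01; limma adjusted p = 0.0226). The call was lost without bleomycin replicate 1 (limma adjusted p = 0.0727) and without bleomycin replicate 2 (0.0677), while the fold change stayed between 1.00 and 1.46 over the 6 fits that each left out 1 library.

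Scgb3a2, whose protein is made along the bronchioles and is a marker of distal club cells, lies on chromosome 18 (43764289 to 43767399, plus strand). It had 324, 122 and 243 FPKM in bleomycin replicates 1 to 3, against 289, 587 and 129 FPKM in PBS replicates 1 to 3. The ranges overlapped, and the spread within each group was wide: the highest library was 2.67-fold above the lowest with bleomycin and 4.54-fold with PBS. Its log2 fold change was -0.40 ± 0.61 (SE; limma adjusted p = 0.676). The PBS library with the highest Scgb3a2, replicate 2, was not the one with the highest Scgb1a1.

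Bpifa1 and Bpifb1 encode proteins of the BPI fold, named for the bactericidal permeability-increasing protein, and both genes lie in 1 cluster on chromosome 2. Bpifa1 (SPLUNC1), a surface-active airway protein that holds back bacterial growth, rose more than any other member. It lies at 154142880 to 154149219 on the plus strand, in 9 exons. It had 168, 181 and 235 FPKM in bleomycin replicates 1 to 3, against 31.8, 71.3 and 60.3 FPKM in PBS replicates 1 to 3. The lowest bleomycin library was above the highest PBS library. The means were 195 ± 35.3 FPKM with bleomycin and 54.4 ± 20.4 FPKM with PBS (SD, n = 3 each), a ratio of 3.57. The log2 fold change was 1.88 ± 0.32 (SE; 95% interval 1.11 to 2.65; limma adjusted p = 0.00849). It stayed called in each of the 16 other settings tried, with log2 fold changes of 1.54 to 2.78.

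Bpifb1 (LPLUNC1), a longer protein of the same family made by goblet and serous cells, lies at 154190818 to 154220369 on the plus strand, in 16 exons. It had 16.2, 16.1 and 11.6 FPKM in bleomycin replicates 1 to 3, against 7.85, 19.0 and 18.3 FPKM in PBS replicates 1 to 3. The groups overlapped, with 2 PBS libraries above and 1 below all bleomycin libraries. Its log2 fold change was 0.04 ± 0.35 (SE; 95% interval -0.79 to 0.87; limma adjusted p = 0.946). The interval of Bpifb1 ends below the start of that of Bpifa1; the difference between these genes was not tested.

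The promoters of the 2 members that rose are shown with that of the cluster neighbour Bpifb1, which was not called. Matches in further members that were not called are given after the sequences. They are RefSeq windows of GRCm38.p6 from 250 bases before to 50 bases after the annotated start, on the plus strand, at chr2:154142630-154142929 for Bpifa1, chr11:49663345-49663644 for Scgb3a1 and chr2:154190568-154190867 for the longer Bpifb1 transcript. Capitals mark matches on either strand to any of 4 motifs. These are TATAAA for the core promoter box, TNTTTNC for forkhead factors such as Foxa2, CTCAAG for factors of the Nkx2 family, and TTNNGNAA for C/EBP factors.
Bpifa1: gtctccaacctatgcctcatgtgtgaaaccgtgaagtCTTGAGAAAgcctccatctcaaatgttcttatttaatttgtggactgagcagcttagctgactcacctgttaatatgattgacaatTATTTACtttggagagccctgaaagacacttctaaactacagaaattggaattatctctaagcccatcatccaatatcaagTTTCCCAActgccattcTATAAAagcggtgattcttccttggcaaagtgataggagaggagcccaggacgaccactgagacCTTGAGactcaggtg
Scgb3a1: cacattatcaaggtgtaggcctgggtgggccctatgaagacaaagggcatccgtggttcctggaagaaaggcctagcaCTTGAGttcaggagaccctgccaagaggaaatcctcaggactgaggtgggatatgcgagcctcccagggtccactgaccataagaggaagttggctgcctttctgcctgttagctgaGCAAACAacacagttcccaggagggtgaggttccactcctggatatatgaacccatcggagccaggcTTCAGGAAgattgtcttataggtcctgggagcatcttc
Bpifb1: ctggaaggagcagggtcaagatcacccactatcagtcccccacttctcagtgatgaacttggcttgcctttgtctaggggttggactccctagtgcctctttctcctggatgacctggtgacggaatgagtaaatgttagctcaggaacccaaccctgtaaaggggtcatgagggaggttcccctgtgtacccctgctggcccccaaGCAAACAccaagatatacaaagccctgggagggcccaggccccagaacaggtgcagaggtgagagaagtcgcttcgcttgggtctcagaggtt

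Counting the start base as 0, the Bpifa1 window held TATAAA at -29, the forkhead motif at -127, CTCAAG at -213 and 35, and the C/EBP motif at -212 and -46, the matches at -213 and -212 overlapping. The Scgb3a1 window held the forkhead motif at -55, CTCAAG at -172 and the C/EBP motif at 12, and no TATAAA. The Bpifb1 window held only the forkhead motif, at -43. Of the other members not called, the Reg3g window held TATAAA at -161 and -27, the forkhead motif at -244 and CTCAAG at -39. The Cbr2 window held only the forkhead motif, at -229 and -141, and the Gabrp window held no match. TATAAA and CTCAAG thus also occurred in a member that was not called. Among these windows the C/EBP motif was in those of Bpifa1 and Scgb3a1 alone. Its relation to the rise was not tested. Of 32851 promoters of the same length, TATAAA was in 13.62%, the forkhead motif in 52.67%, CTCAAG in 15.9% and the C/EBP motif in 40.68%. A match is a description of letters, and no binding was measured. Of 8 members looked up by symbol, 6 were matched (Scgb3a1, Bpifa1, Bpifb1, Reg3g, Cbr2 and Gabrp); Scgb1a1 and Muc5b were not matched.

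The analysis covered 4 genes of the BPI-fold cluster, all on the plus strand, and they differed in direction. Bpifb5, which starts 3.37 kb after the end of Bpifb1, had 1.51, 1.18 and 0.73 FPKM in bleomycin replicates 1 to 3, against 10.4, 10.8 and 7.54 FPKM in PBS replicates 1 to 3. It fell by 2.31 on the log2 scale (SE 0.22; limma adjusted p = 0.000818), with all bleomycin libraries below all PBS libraries. Bpifa2, a member of the family best known from salivary glands, ends 126.8 kb before Bpifa1 and had 0.60, 1.79 and 1.48 FPKM with bleomycin, against 7.27, 4.26 and 6.27 FPKM with PBS, in the order of the replicates. It fell by 1.61 on the log2 scale (SE 0.28; limma adjusted p = 0.00961). Within 1 cluster, then, 1 gene rose, 2 fell and Bpifb1 between them was not called. Both falls stayed called when any 1 library was left out and when libraries were set to equal pan-epithelial levels.

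**Figure D2:**
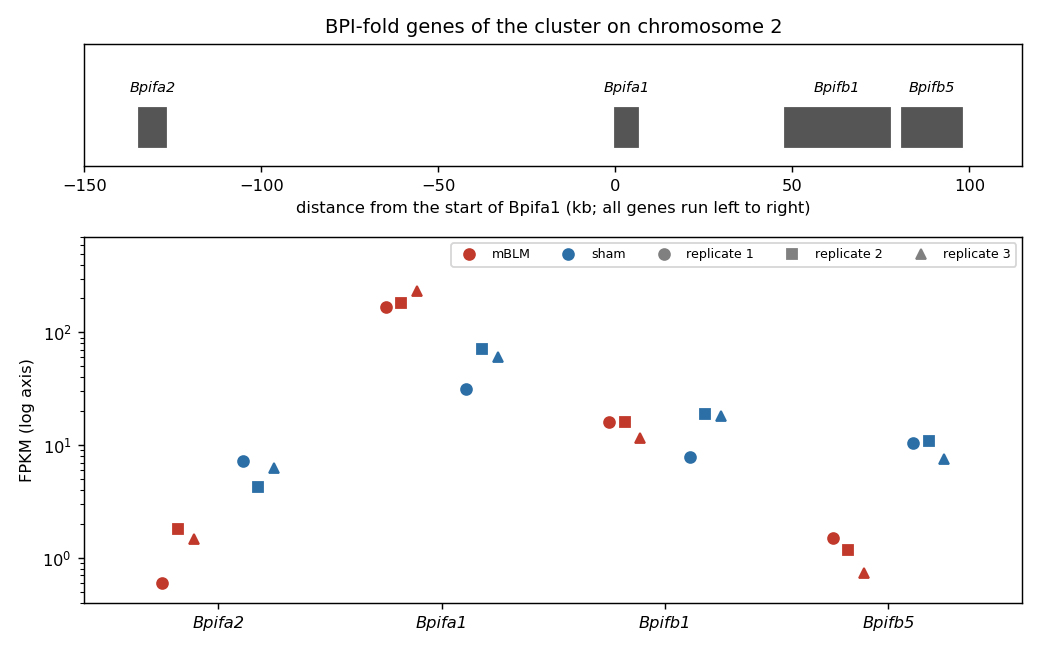
Top, the 4 analysed genes of the BPI-fold cluster drawn to scale by distance in kb from the start of Bpifa1. Bottom, their FPKM on a log axis in the 3 mBLM (bleomycin, red) and 3 sham (PBS, blue) libraries: bleomycin libraries are higher for Bpifa1 (168 to 235, against 31.8 to 71.3 FPKM), lower for Bpifa2 and Bpifb5, and overlap PBS for Bpifb1.

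Reg3g encodes a secreted C-type lectin that kills Gram-positive bacteria. It lies on chromosome 6 (78466269 to 78468872, minus strand). It had 18.4, 18.5 and 14.9 FPKM in bleomycin replicates 1 to 3, against 1.95, 11.1 and 20.5 FPKM in PBS replicates 1 to 3. The bleomycin libraries lay close together within the PBS range, and the highest PBS library was 10.5-fold above the lowest. The means were 17.3 ± 2.00 FPKM with bleomycin and 11.2 ± 9.26 FPKM with PBS (SD, n = 3 each), with a log2 fold change of 0.99 ± 0.68 (SE; limma adjusted p = 0.341). Without PBS replicate 1 the fold change was 0.17.

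Muc5b, the gel-forming mucin that clears particles from the airway, was the least abundant member in both groups. It spans chromosome 7 from 141839070 to 141873084 on the plus strand in 49 exons. It had 2.94, 4.80 and 4.23 FPKM in bleomycin replicates 1 to 3, against 0.626, 2.82 and 1.49 FPKM in PBS replicates 1 to 3. Each bleomycin library was above each PBS library, by little between the lowest bleomycin and the highest PBS library. The means were 3.99 ± 0.95 FPKM with bleomycin and 1.65 ± 1.1 FPKM with PBS (SD, n = 3 each). The log2 fold change of 0.98 ± 0.34 (SE; 95% interval 0.17 to 1.80) did not pass the threshold (limma adjusted p = 0.0837). It passed without PBS replicate 2 (limma adjusted p = 0.0395).

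Cbr2, a mitochondrial carbonyl reductase abundant in lung and a marker of club cells, was the one member whose bleomycin libraries were all lower. It lies on chromosome 11 (120729489 to 120732114, minus strand). It had 929, 813 and 416 FPKM in bleomycin replicates 1 to 3, against 2040, 1670 and 1095 FPKM in PBS replicates 1 to 3. No bleomycin library reached the lowest PBS library. The means were 720 ± 269 FPKM with bleomycin and 1602 ± 477 FPKM with PBS (SD, n = 3 each). The log2 fold change of -1.19 ± 0.40 (SE; 95% interval -2.14 to -0.24) missed the threshold (limma adjusted p = 0.0764). It passed when library medians were set equal (limma adjusted p = 0.0461), and it was -0.27 (limma adjusted p = 0.488) when libraries were set to equal pan-epithelial levels. Cbr2 is also made by AT2 cells, whose marker genes were lower with bleomycin; the part of that in its level was not tested.

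Gabrp, the pi subunit of the GABA-A receptor, a chloride channel found in several epithelia, lies on chromosome 11 (33550781 to 33578957, minus strand). It had 11.4, 8.67 and 8.52 FPKM in bleomycin replicates 1 to 3, against 6.41, 14.1 and 6.65 FPKM in PBS replicates 1 to 3. The groups overlapped, with the highest value in a PBS library. Its log2 fold change was 0.14 ± 0.31 (SE; 95% interval -0.60 to 0.88; limma adjusted p = 0.783).

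**Figure D3:**
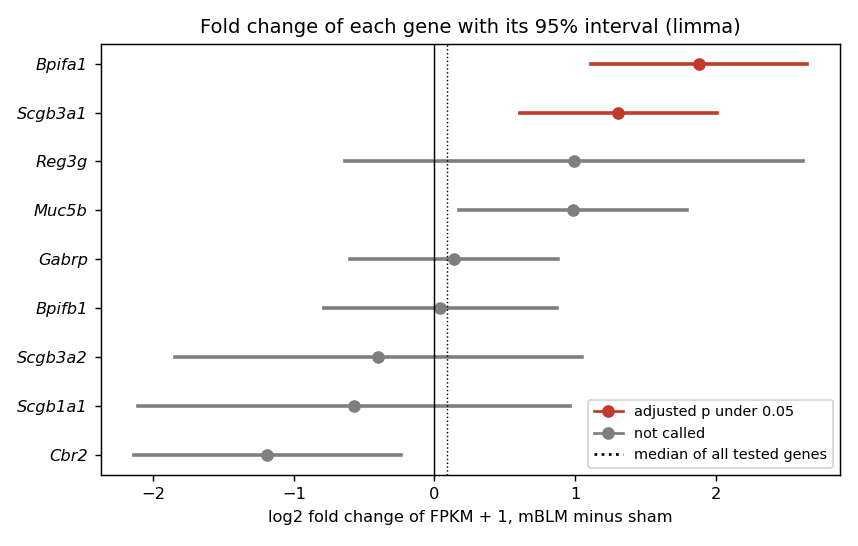
Log2 fold change of FPKM + 1 (mBLM minus sham) of each of the 9 genes, with its 95% interval from limma over 3 libraries a group; red marks an adjusted p under 0.05 and the dotted line the median of all tested genes (0.09). The intervals of Bpifa1 and Scgb3a1 (called), Muc5b and Cbr2 (not called) leave out 0, and the other 5 include it.

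A ratio of FPKM within a library is not changed by multiplying that library by 1 factor, though quantile normalization would change it. Set against Scgb1a1, 2 of the other 8 members were higher in every bleomycin library, Bpifa1 and Scgb3a1, and the other 6 overlapped. The share of all genes higher in this way against Scgb1a1 was not counted, so 2 of 8 is a description only. The high Scgb1a1 of PBS replicate 1 lowers that library's ratio for any gene. For each 1000 FPKM of Scgb1a1 there were 65.7, 104 and 73.3 FPKM of Bpifa1 in bleomycin replicates 1 to 3, against 3.27, 29.5 and 30.0 FPKM in PBS replicates 1 to 3. The log2 ratio was 2.48 higher with bleomycin in an exact permutation test (two-sided p = 0.1, the smallest that 20 assignments allow). For Scgb3a1 there were 58.4, 73.0 and 32.9 FPKM per 1000 with bleomycin, against 3.36, 26.0 and 30.9 FPKM per 1000 with PBS, in the order of the replicates. That log2 ratio was 1.90 higher with bleomycin (exact permutation p = 0.1). Both gaps were smaller without PBS replicate 1, at 1.42 for Bpifa1 and 0.88 for Scgb3a1, with the groups still apart.

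The club cell cytochrome P450 gene Cyp2f2, which activates naphthalene, served as another denominator, chosen after the data were seen. It had 529, 422 and 307 FPKM in bleomycin replicates 1 to 3, against 439, 368 and 199 FPKM in PBS replicates 1 to 3, and was not called (log2 fold change 0.36; limma adjusted p = 0.509). Against it, Bpifa1 was again higher in every bleomycin library, by 1.54 on the log2 scale (exact permutation p = 0.1), and the Scgb3a1 libraries overlapped. Cbr2 stood at 1758, 1929 and 1355 FPKM per 1000 FPKM of Cyp2f2 with bleomycin, against 4653, 4541 and 5487 FPKM with PBS. This difference of -1.55 in the log2 ratio (exact permutation p = 0.1) stayed between -1.66 and -1.40 with any 1 library left out, and the PBS libraries lay close together.

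**Figure D4:**
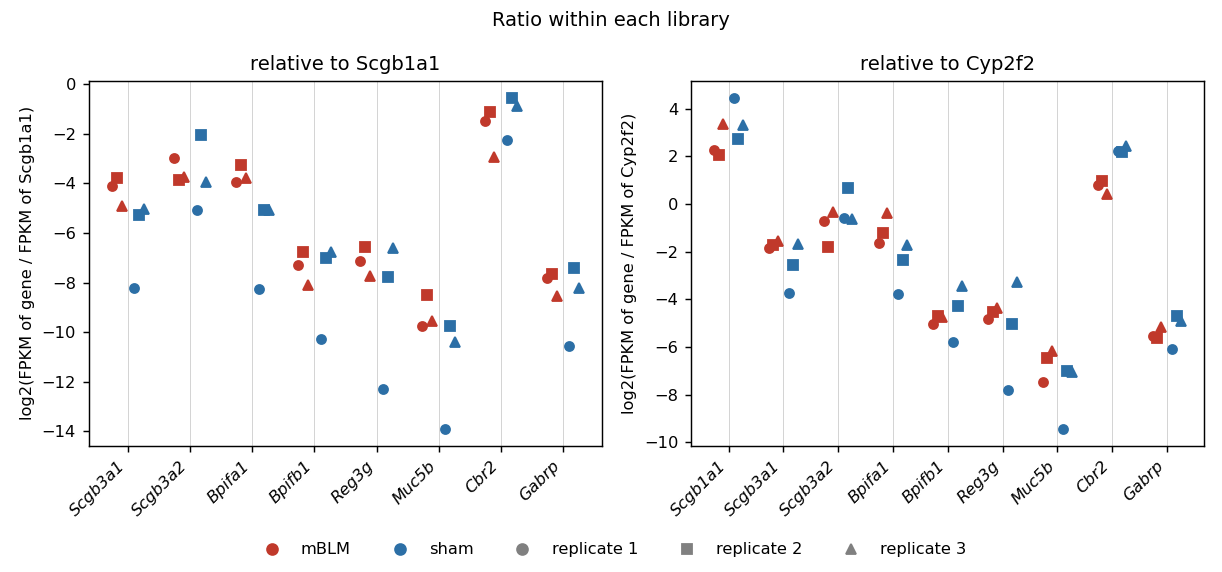
Log2 ratio of each gene's FPKM to that of Scgb1a1 (left) and of Cyp2f2 (right) in the 3 mBLM (bleomycin, red) and 3 sham (PBS, blue) libraries; marker shape gives the replicate. PBS replicate 1 is the lowest library for every ratio to Scgb1a1 except that of Cbr2, Bpifa1 is higher with bleomycin against both denominators, and Cbr2 is lower against Cyp2f2.

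The transcripts listed for the members were mostly carried by 1 form. Scgb3a1-001 held 84.1% to 98.6% of its gene's FPKM and Scgb3a2-001 held 86.0% to 93.5% over the 6 libraries, while Scgb1a1, Bpifa1, Reg3g, Muc5b and Gabrp each have a single listed transcript. For Bpifb1 the shorter transcript Bpifb1-002, which starts within the gene, held 0.74%, 1.24% and 37.7% in bleomycin replicates 1 to 3, against 0%, 1.98% and 4.06% in PBS replicates 1 to 3. For Cbr2 the transcript Cbr2-002 held 27.5%, 25.3% and 12.7% in bleomycin replicates 1 to 3, against 29.4%, 24.7% and 27.6% in PBS replicates 1 to 3. In both genes bleomycin replicate 3 was the library that stood apart. No other gene of the GENCODE M21 annotation overlaps any of the 9.

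The genes whose pattern over the 6 libraries was nearest to that of 2 members were sought among 7982 tested genes with a mean of 5 FPKM or more, leaving out the 9 members, numbered gene models and antigen receptor segments, by the root mean square difference of log2(FPKM + 1) after each gene's own mean was taken off. Nearest to Scgb1a1 were Cnep1r1 (0.22), Avpi1 (0.27), Bod1 (0.33), Igfbp7 (0.33) and Tmub2 (0.38). Each of these was highest in PBS replicate 1, as Scgb1a1 was: Igfbp7, a secreted binding protein of insulin-like growth factors, had 143, 107 and 197 FPKM with bleomycin, against 667, 182 and 228 FPKM with PBS. No other member was among them, the nearest being Cbr2 at 0.83. Nearest to Bpifa1 were Sgk1 (0.17), Cbl (0.22), Map3k8 (0.27), Lasp1 (0.28) and Cpne3 (0.29). Sgk1, a kinase that responds to glucocorticoids and salt, had 90.7, 109 and 116 FPKM with bleomycin, against 19.9, 51.0 and 34.5 FPKM with PBS. Among the members Scgb3a1 (0.41) and Muc5b (0.49) were nearest to Bpifa1, followed by Reg3g (0.76). These distances rest on 6 libraries in 2 groups and carry no test.

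Other genes of club cells moved in both directions. Of 29 such genes 26 were tested, of which 2 rose, 8 fell and 16 were not called, with a median log2 fold change of -0.53. The count that fell was 3 without PBS replicate 1, 4 without bleomycin replicate 2 or PBS replicate 2, 5 without bleomycin replicate 1, 6 without either of the remaining libraries, and 1 when libraries were set to equal pan-epithelial levels. Under that scaling 6471 of all 12326 tested genes were called higher and 128 lower, with a median log2 fold change of 0.86. Counts at equal pan-epithelial levels, here and in the lists below, are to be read beside these. Cyp2a5, a P450 that oxidises nicotine and coumarin, had 46.2, 38.8 and 24.1 FPKM in bleomycin replicates 1 to 3, against 4.97, 2.62 and 3.79 FPKM in PBS replicates 1 to 3, and rose by 2.94 on the log2 scale (limma adjusted p = 0.000985). Its reads are hard to tell from those of its near-identical copy Cyp2a4, so this level is uncertain. Cyp4b1, another lung P450, had 60.7, 75.3 and 46.8 FPKM with bleomycin, against 27.5, 21.8 and 16 FPKM with PBS, and rose by 1.45 (limma adjusted p = 0.0101). Selenbp1, a selenium-binding protein, had 104, 113 and 140 FPKM with bleomycin, against 328, 355 and 300 FPKM with PBS, and fell by 1.46 (limma adjusted p = 0.00221); at equal pan-epithelial levels it was at -0.55 and not called (limma adjusted p = 0.161). The collectins Sftpa1 (log2 fold change -1.66) and Sftpd (-1.49), which AT2 cells make as well, were also among those that fell, Sftpd being at -0.58 and not called at equal pan-epithelial levels (limma adjusted p = 0.0574). Aldh1a1 (-0.31) and Hp (-0.44), which mark club cells, were not called.

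Within the gene families of the members, 5 of 25 further secretoglobin, BPI-fold and Reg genes could be analysed here, and all 5 were tested. Pltp, a plasma phospholipid transfer protein with a BPI fold, rose (log2 fold change 1.03; limma adjusted p = 0.0177), a call lost without bleomycin replicate 2, PBS replicate 2 or PBS replicate 3. Bpifa2 and Bpifb5, described above, fell. Scgb1c1, a secretoglobin known from olfactory and airway mucosa, had 5.73, 5.81 and 3.91 FPKM with bleomycin, against 18.4, 21.6 and 7.44 FPKM with PBS, and was not called (limma adjusted p = 0.0512). Its libraries did not overlap, with bleomycin lower, opposite to Scgb3a1.

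Among 14 tested goblet, serous and gland genes, 5 rose, 3 fell and 6 were not called, with a median log2 fold change of 0.50. At equal pan-epithelial levels 10 rose and 1 fell, where 6471 of all 12326 tested genes were called higher. Agr2, an endoplasmic reticulum protein needed to fold mucins, had 4.69, 4.28 and 3.82 FPKM in bleomycin replicates 1 to 3, against 0.0654, 0.827 and 0.408 FPKM in PBS replicates 1 to 3 (log2 fold change 1.91, limma adjusted p = 0.00219). It reached 1 FPKM in the bleomycin libraries alone and was tested only through them. The same held for Gp2, another of the 5 that rose. Gp2 had 3.41, 2.64 and 1.77 FPKM with bleomycin, against 0.159, 0.359 and 0.236 FPKM with PBS. The filter thus favoured rises in this list. Galnt12, which starts O-linked sugar chains, rose by 1.5 (limma adjusted p = 0.00277). Ltf, lactoferrin, rose by 3.03 (limma adjusted p = 0.000661); neutrophils carry it in their granules as well, and the neutrophil receptor gene Csf3r had 53.2, 24.6 and 33.1 FPKM with bleomycin, against 0.805, 0.396 and 1.07 FPKM with PBS. The part of neutrophils in the Ltf level was not tested. Muc1, a membrane mucin of AT2 cells, fell by 1.89 (limma adjusted p = 0.00302). Of the genes that define goblet cells, Muc5ac was not analysed here and Spdef stayed under 1 FPKM in all 6 libraries.

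Of 17 tested mucosal defence genes 3 rose, 3 fell and 11 were not called, with a median log2 fold change of -0.24. With 1 library left out, 1 rose without PBS replicate 2, 4 rose without bleomycin replicate 3 and 2 rose otherwise. The falls numbered 1 without PBS replicate 2, and 2 or 3 otherwise. At equal pan-epithelial levels 5 rose and 1 fell. The 3 that rose at first were Slpi, Ccl20 and Ltf, the last also counted in the goblet, serous and gland list. Ccl20 had 3.26, 3.05 and 1.47 FPKM with bleomycin, against 0, 0.197 and 0.809 FPKM with PBS. It was tested only through the bleomycin libraries, so the filter favoured its rise. Its call (limma adjusted p = 0.0206) was lost without bleomycin replicate 1 or 2 or PBS replicate 1 or 2. Slpi, an antiprotease of airway secretions, had 93.0, 52.5 and 44.1 FPKM with bleomycin, against 27.1, 20.2 and 20.6 FPKM with PBS, and rose by 1.38 (limma adjusted p = 0.0200), a call lost without PBS replicate 2 or 3. Cxcl15, lungkine, which is also in the list of AT2 genes given below, fell by 1.45 (limma adjusted p = 0.0130). At equal pan-epithelial levels its log2 fold change was -0.54 and not called (limma adjusted p = 0.0685). Pigr, the receptor that carries IgA across the epithelium, had 12.4, 10.6 and 9.28 FPKM with bleomycin, against 2.90, 6.52 and 7.54 FPKM with PBS, and was not called (limma adjusted p = 0.0920), though its groups did not overlap.

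Of 21 tested transcription factors of secretory airway cells, 1 rose, 6 fell and 14 were not called, with a median log2 fold change of -0.85; with libraries at equal pan-epithelial levels 4 rose and 1 fell. The 1 rise was lost in 5 of the 6 fits that left out a library. Elf5, an ETS factor of distal lung epithelium, had 3.31, 5.92 and 3.50 FPKM with bleomycin, against 16, 14.1 and 15.6 FPKM with PBS (log2 fold change -1.66; limma adjusted p = 0.00317). Creb3l1, a regulator of secretory capacity, fell by 1.52 and Grhl2, a regulator of epithelial junctions, by 1.22. Neither was called at equal pan-epithelial levels, with log2 fold changes of -0.65 for Creb3l1 and -0.49 for Grhl2 (limma adjusted p = 0.155 for Creb3l1 and 0.187 for Grhl2). Grhl2 is itself among the pan-epithelial genes that set this scaling, so its value there is not independent of the scaling. Nkx2-1, the factor that sets lung identity and drives Scgb1a1, had 39.6, 9.56 and 3.58 FPKM with bleomycin, against 41.5, 113 and 32.1 FPKM with PBS, and was not called (limma adjusted p = 0.120). Sox2, which defines airway epithelium, was not analysed here.

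Of 23 tested genes for cytokines that act on airway secretion, their receptors and signalling proteins, 6 rose, 1 fell and 16 were not called, with a median log2 fold change of 0.06. The count that rose was 6 with any 1 library left out, where 0 or 1 fell, and 13 rose and 0 fell at equal pan-epithelial levels. Il1b had 110, 27.7 and 66.5 FPKM with bleomycin, against 1.18, 1.88 and 2.88 FPKM with PBS (log2 fold change 4.37; limma adjusted p = 0.00163). Ifng rose by 3.31, Tnf by 2.22 and the interleukin 17 receptor gene Il17ra by 1.84. In PBS replicates 1 to 3 Ifng had 0, 0.428 and 0.129 FPKM and Tnf 0.503, 0.965 and 0.715 FPKM. Genes of this list under 1 FPKM in each PBS library, such as these, were tested only through the bleomycin libraries, so the filter favoured rises. In the same libraries 27 of 29 tested leukocyte genes rose, and whether the cytokine RNA came from leukocytes was not tested. The cytokine genes of type 2 immunity, Il4 and Il13, were not analysed here.

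The remaining lists bear on the functions of Gabrp and Cbr2 and on mucin release. Of 5 tested GABA receptor and handling genes 1 fell, Gabre (log2 fold change -1.28; limma adjusted p = 0.00475), and 0 rose. At equal pan-epithelial levels Gabre was at -0.68 and not called (limma adjusted p = 0.0584), so that 0 fell. Of 18 carbonyl reductase and related enzyme genes 2 rose and 1 fell; Akr1c14, a hydroxysteroid dehydrogenase, rose by 1.21 (limma adjusted p = 0.00956), and the rise of Akr1c13 was lost in all 6 fits that left out 1 library and the fall of Dhrs3 in 5 of 6, and both were lost with a replicate block. At equal pan-epithelial levels 7 of these genes rose and 0 fell, beside 6471 of all 12326 tested genes called higher. Of 18 genes of mucin granules and regulated secretion 2 rose and 2 fell, the falls being those of Slc12a2 and Syt7. The rises were those of Unc13d and Agr2. Agr2 is also counted in the goblet, serous and gland list and was tested only through the bleomycin libraries. The falls numbered 0 without bleomycin replicate 3 or without PBS replicate 2, 1 with any of the other libraries left out, and 0, with 8 genes rising, at equal pan-epithelial levels. Unc13d, which primes granules for release also in blood cells, rose by 0.98 (limma adjusted p = 0.00754), but by 0.55 and uncalled when the highest transcript alone was used (limma adjusted p = 0.280).

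**Figure D5:**
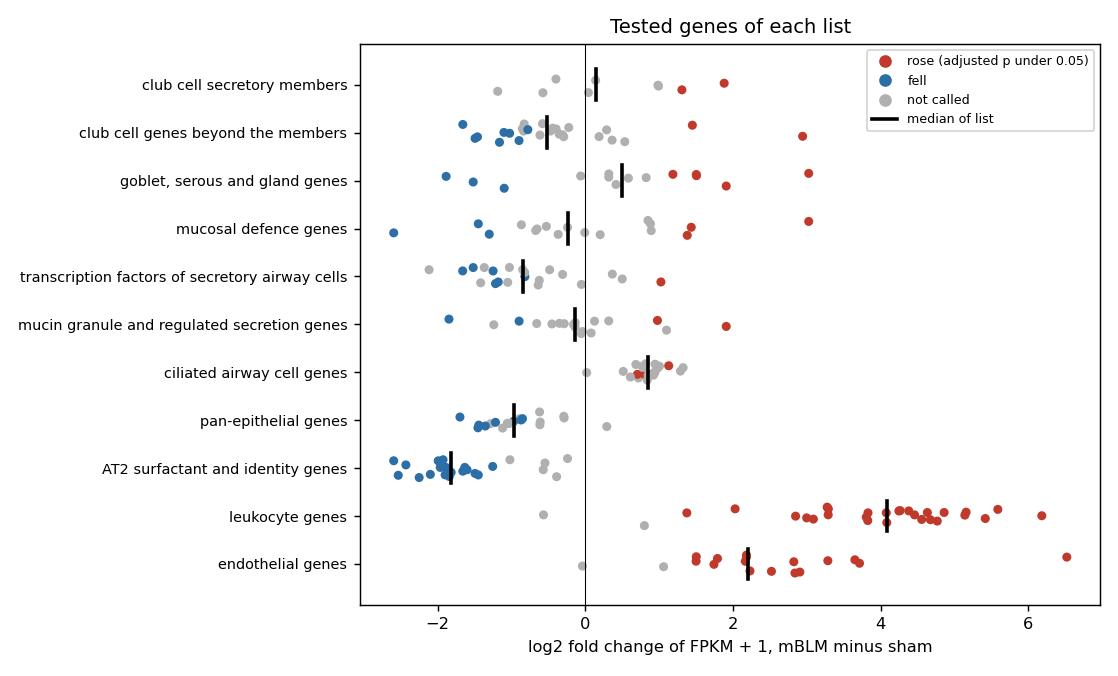
Log2 fold change of FPKM + 1 (mBLM minus sham) of the tested genes of each list, 1 point a gene, red where a gene rose and blue where it fell at an adjusted p under 0.05 in limma, with the list's median as a black bar. The members lie on both sides of 0 (median 0.14), the ciliated list lies above 0 (median 0.84), AT2 genes lie below it (median -1.82), and leukocyte genes far above it (median 4.08).

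Other airway cells gave the following values. Of 22 ciliated cell genes 4 rose and 0 fell, with a median log2 fold change of 0.84 and summed levels of 515 to 962 FPKM with bleomycin and 351 to 566 FPKM with PBS. This count depended on single libraries: it was 18 without bleomycin replicate 3 and 0 without bleomycin replicate 1, without bleomycin replicate 2 or without PBS replicate 2. Foxj1, the ciliated cell regulator, had 53.3, 59.1 and 32.2 FPKM with bleomycin, against 35.6, 19.1 and 19.8 FPKM with PBS, and was not called (limma adjusted p = 0.0840). Of 6 tested basal cell genes 2 rose: Aqp3, a water and glycerol channel, had 4.27, 3.90 and 3.07 FPKM with bleomycin, against 0.184, 0.331 and 0.338 FPKM with PBS. The other, Dapl1, had 15.1, 12.1 and 4.05 FPKM with bleomycin and is listed at 0 in each PBS library. Both reached 1 FPKM in the bleomycin libraries alone and were tested only through them, so the filter favoured rises here. The cell source of their RNA was not tested. The defining basal markers were near 0: Krt5 had 0.655, 0.652 and 0.824 FPKM with bleomycin, against 0, 0 and 0.0733 FPKM with PBS. Trp63 had 0, 0.536 and 0.373 FPKM with bleomycin and is listed at 0 in each PBS library. Of 6 tested neuroendocrine and tuft cell genes 2 rose, both calls being lost without some single libraries. Of these 2, Pcsk1 reached 1 FPKM in the bleomycin libraries alone. Among AT2 genes 18 of 23 fell, and among pan-epithelial genes 8 of 19 fell. The pan-epithelial count was 4 without PBS replicate 1, 7 without bleomycin replicate 3 and 5 with any of the other libraries left out. Scgb1a1, Scgb3a2, Bpifb1, Reg3g and Gabrp overlapped between groups while these lists were lower. The part of any shift in cell mix in the members' levels was not tested.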

How the data were processed

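RNA of AT2 preparations was isolated with TRIzol and made into libraries with a KAPA stranded kit, per the labels' protocols. HISAT2, StringTie, FastQC 0.10.1 and the build mm10 are named per the submitters' processing notes; their settings and the annotation used are not stated there. The authors deposited FPKM per transcript in 1 file a library, per the file headers. Whole reads were not recovered: a common step held no more than 33.67% of low values in any library (tolerance 0.05 of a step), so depth is unknown and no counting interval is given.

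FPKM were summed by gene ID, and genes that reached 1 FPKM in 3 or more of 6 libraries were tested on log2(FPKM + 1), which understates fold changes at low levels. A gene under 1 FPKM throughout 1 group was tested only if the other group reached it. Counts of rises and falls among low genes are therefore tilted by the filter. Groups were compared with limma 3.58.1 under R 4.3.3 (group as the only term, empirical Bayes with trend), with Benjamini-Hochberg adjustment over 12326 genes; it was tested on simulated data. Ratios were tested with exact permutation in SciPy 1.17.1 and Python 3.11.15. A value of exactly 0 may reflect an estimate that failed. The design assigns 3 mice to each group, and groups come from the sample titles. No libraries held identical values. The sources give no batch or date. Samples sharing a replicate number did not deviate together, so no pairing was used.

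The members, gene lists, motifs and tests were chosen with earlier results of these data known. Named genes are the 9 members, up to 4 called genes per list with the smallest adjusted p, a set of fixed markers and the 5 genes most like Scgb1a1 and Bpifa1. Csf3r, Scgb1c1, Gp2, Krt5, Trp63, Il4 and Il13 were named outside this rule after their values were seen. Alternatives were other pseudocounts, filters and scalings, the highest transcript alone, no trend, a replicate block and leaving out each library.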

Additional observations from a re-analysis of the deposited data

How the results depend on the processing

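Bpifa1 was called in all 16 alternatives, and over all members and alternatives 117 of 143 results kept their direction and side of the threshold. With all genes, 2776 were called as reported; a filter on a mean of 5 FPKM left 1796, scaling to equal pan-epithelial means gave 6599, and leaving out 1 library gave 1782 to 2630. The called members numbered 1 to 3 of 9 with 1 library left out, beside 1782 to 2630 of 12326 tested genes. With equal pan-epithelial means they numbered 6 (Bpifa1, Scgb3a1, Muc5b, Reg3g, Bpifb1 and Gabrp), beside 6599 of 12326 tested genes. Under that scaling the median log2 fold change over all genes was 0.86, so member changes there are relative to it; equal medians and quantile normalization gave -0.07 and -0.08, and the share of calls that were higher, 67.4% as reported, was 98.1%, 51.1% and 49.8% in these scalings in that order. The replicate numbers did not pair the libraries, with correlations of deviations of -0.004 to 0.039 for same-numbered pairs; with a replicate block Bpifa1 and Cbr2 (adjusted p = 0.0157 in limma) were called and Scgb3a1 was not (adjusted p = 0.0606 in limma).

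Signs reversed among members that were not called. Scgb1a1 was 0.66 with quantile normalization, 0.34 with equal pan-epithelial means and -1.0 to 0.14 with 1 library left out. Scgb3a2 was 0.51 with equal pan-epithelial means and -0.95 to 0.13 with 1 library left out. Bpifb1 was -0.14 with equal medians, -0.080 with quantile normalization, -0.15 by its highest transcript and -0.34 to 0.25 with 1 library left out. Gabrp was -0.035 with equal medians, -0.015 with quantile normalization and -0.040 to 0.47 with 1 library left out. With equal pan-epithelial means Dhrs3 was 0.16, Aldh1a1 0.60, Hp 0.46, Avpi1 0.18, Bod1 0.50 and Tmub2 0.13. With 1 library left out, Bod1 was -0.67 to 0.28. The log2 ratio to Scgb1a1 with 1 library left out was -0.51 to 1.00 for Scgb3a2, -0.50 to 1.24 for Bpifb1 and -0.17 to 1.40 for Gabrp. With Cyp2f2 in place of Scgb1a1, the log2 ratio was -0.76 for Scgb3a2, -0.31 for Bpifb1 and -0.20 for Gabrp. The cause of these changes was not tested. Unknown depth limits low genes such as Muc5b most.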
